A study of Mus musculus with 12 samples.

Results

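Genes of cholesterol and fatty acid synthesis were described in the dermis of newborn mice. They are a list of 31 enzymes and regulators chosen by name, and each gene was read from the probe sets that the array annotation gives to its symbol alone. Of the 31 genes, 30 were measured by 69 probe sets, among 18193 genes on the array. Acat2, a thiolase that joins acetyl-CoA units, had no such probe set and has no value here. Probe sets were averaged for the 22 genes with more than 1, and the other 8 genes had 1. Of the measured genes, 19 act in or regulate cholesterol synthesis and 11 act in the synthesis, elongation or desaturation of fatty acids.

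The study profiled RNA of dermis on 12 one-colour Affymetrix arrays, in 4 groups of 3. P1 Tail and P1 Back are tail and back skin taken 1 day after birth, P5 Tail and P5 Back the same at 5 days, and all samples carry the strain label C57Bl6/CBA F1 with no treatment or altered gene named. At P1, tail dermis was lifted from the epidermis after EDTA and back dermis after dispase and trypsin, so that site and separation solution cannot be told apart, and no separate protocol is given for P5. The methods name triplicate mice, and each array was taken as 1 mouse.

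Cells build cholesterol from acetyl-CoA through mevalonate, squalene and lanosterol, and build fatty acids from the same acetyl-CoA through malonyl-CoA, after which elongases lengthen the chains and desaturases insert double bonds. The transcription factors SREBP2 (Srebf2) and SREBP1 (Srebf1) switch on the sterol and the fatty acid genes, and INSIG proteins hold them back when sterols are plentiful. In skin these lipids go into the sebum of sebaceous glands, the barrier of the epidermis, the fat cells of the dermis and the myelin of nerves.

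Promoters of the cholesterol genes shared sequence letters that the choice of genes did not use. RefSeq promoter windows (GRCm38.p6) were at hand for 25 of the 31 genes, and the 250 bases before each start were searched on both strands. The CCAAT box, spelled CCAAT, lay in the windows of 16 of 17 cholesterol genes (94.1%) and of 4 of 8 fatty acid genes, against 37.5% of the 27025 genes with a window. The GC box, spelled GGGCGG, lay in 16 of 17 cholesterol genes and 3 of 8 fatty acid genes (37.5%), against 35.4% of all genes. The E-box CACGTG lay in 5 of the 25 genes (20.0%), against 6.86% of all genes. The sterol regulatory element, searched as TCACNCCAC, lay in Hmgcs1 alone of the 25 (4.0%), against 1.22% of all genes. These matches are descriptions of letters and not of bound sites. The 5 windows below show a cholesterol gene with the sterol element, the cholesterol gene with the largest difference between sites at P5, fatty acid synthase, and an elongase and a desaturase that differed in opposite directions. They run 5′ to 3′ along the gene's strand, with capitals for a CCAAT box (ATTGG on the other strand) or the sterol element.
Hmgcs1 (chr13:119690101-119690350, plus strand): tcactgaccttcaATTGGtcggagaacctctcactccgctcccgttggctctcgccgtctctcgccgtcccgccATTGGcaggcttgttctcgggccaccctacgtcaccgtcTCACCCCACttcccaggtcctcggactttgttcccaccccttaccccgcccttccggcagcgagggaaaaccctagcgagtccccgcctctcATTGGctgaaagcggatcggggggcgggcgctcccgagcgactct
Msmo1 (chr8:64733579-64733828, minus strand): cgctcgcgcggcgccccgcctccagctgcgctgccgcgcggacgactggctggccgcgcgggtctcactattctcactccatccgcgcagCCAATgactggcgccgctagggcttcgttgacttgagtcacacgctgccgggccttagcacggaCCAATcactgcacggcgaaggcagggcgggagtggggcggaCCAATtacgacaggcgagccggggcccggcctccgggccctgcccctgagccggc
Fasn (chr11:120824548-120824797, minus strand): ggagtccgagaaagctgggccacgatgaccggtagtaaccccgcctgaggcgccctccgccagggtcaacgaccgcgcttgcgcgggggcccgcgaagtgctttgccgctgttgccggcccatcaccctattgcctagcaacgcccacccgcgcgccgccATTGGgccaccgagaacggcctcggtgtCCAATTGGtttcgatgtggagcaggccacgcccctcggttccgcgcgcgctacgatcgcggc
Elovl6 (chr3:129532136-129532385, plus strand): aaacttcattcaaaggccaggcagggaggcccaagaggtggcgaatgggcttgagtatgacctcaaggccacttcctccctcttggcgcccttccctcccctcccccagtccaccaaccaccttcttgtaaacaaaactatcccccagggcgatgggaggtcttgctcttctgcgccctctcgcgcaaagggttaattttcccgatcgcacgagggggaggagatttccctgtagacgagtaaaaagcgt
Fads2 (chr19:10101504-10101753, minus strand): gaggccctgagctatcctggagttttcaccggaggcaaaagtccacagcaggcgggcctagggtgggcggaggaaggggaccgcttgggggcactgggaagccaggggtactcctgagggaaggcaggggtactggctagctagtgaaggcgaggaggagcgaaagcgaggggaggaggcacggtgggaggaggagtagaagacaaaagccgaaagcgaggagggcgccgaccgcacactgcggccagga
The windows of Hmgcs1, Msmo1 and Fasn each held 3 CCAAT boxes, and those of Elovl6 and Fads2 held 0.

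The deposited values are log2 expression values in which the middle of the 12 arrays is set to 0 for each probe set. They show how arrays differ and not how abundant an mRNA was, so no gene can be ranked by level against another and no dermal marker can be called present or absent. Differences are given on the log2 scale as arrays labelled tail minus arrays labelled back, or as P5 minus P1. They come from 1 limma fit of all 12 arrays, with a standard error (SE), and a gene was called where its p-value, adjusted by the Benjamini-Hochberg method over the 18193 genes, was under 0.05. Values of single arrays are listed by replicate number, which is 4, 5 and 6 for P1 Tail and 1, 5 and 6 for P1 Back. At P5 it is 2, 3 and 4 for tail and 1, 2 and 3 for back. In such bulk tissue, fewer cells of a type and less RNA per cell cannot be told apart.

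The labels were first set against genes of position. Of 10 measured posterior Hox genes, which mark caudal parts of the body, 7 were called lower in arrays labelled tail at P1 and 7 at P5, with median differences of -1.43 and -1.35. Adiponectin (Adipoq), made by fat cells, was higher by 5.23 in P1 Tail. Both go against the labels, and for the fat genes the direction opposes the one the study describes, so all directions here are by label and groups were not exchanged. Some arrays stood apart. P1 Tail replicate 4 held the lowest value of all 12 arrays for 17 of the 30 genes, against 12.6% of all genes, and for 14 of the 19 cholesterol genes. P5 Tail replicate 2 held the highest value for 11 of the 30, against 26.7% of all genes, and had the widest spread over probe sets (SD 0.496, against 0.227 to 0.338 in the other arrays). Cartilage genes averaged up to 2.12 in P1 Back, where replicates 1 and 6 were high, and at most -0.20 in P1 Tail.

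At P1 the lipid genes differed little between the labelled sites, and at P5 the fatty acid genes differed by up to 2.72-fold. At P1, 2 of the 30 genes were called (6.67%), both lower in P1 Tail, against 3.97% of all genes (2.06% higher and 1.91% lower). At P5, 10 were called (33.3%), 8 higher and 2 lower in P5 Tail, against 6.91% of all genes (4.3% higher and 2.61% lower). The fatty acid genes made up 8 of those 10 (8 of 11, 72.7%) and the cholesterol genes 2 (2 of 19, 10.5%).

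**Figure D1:**
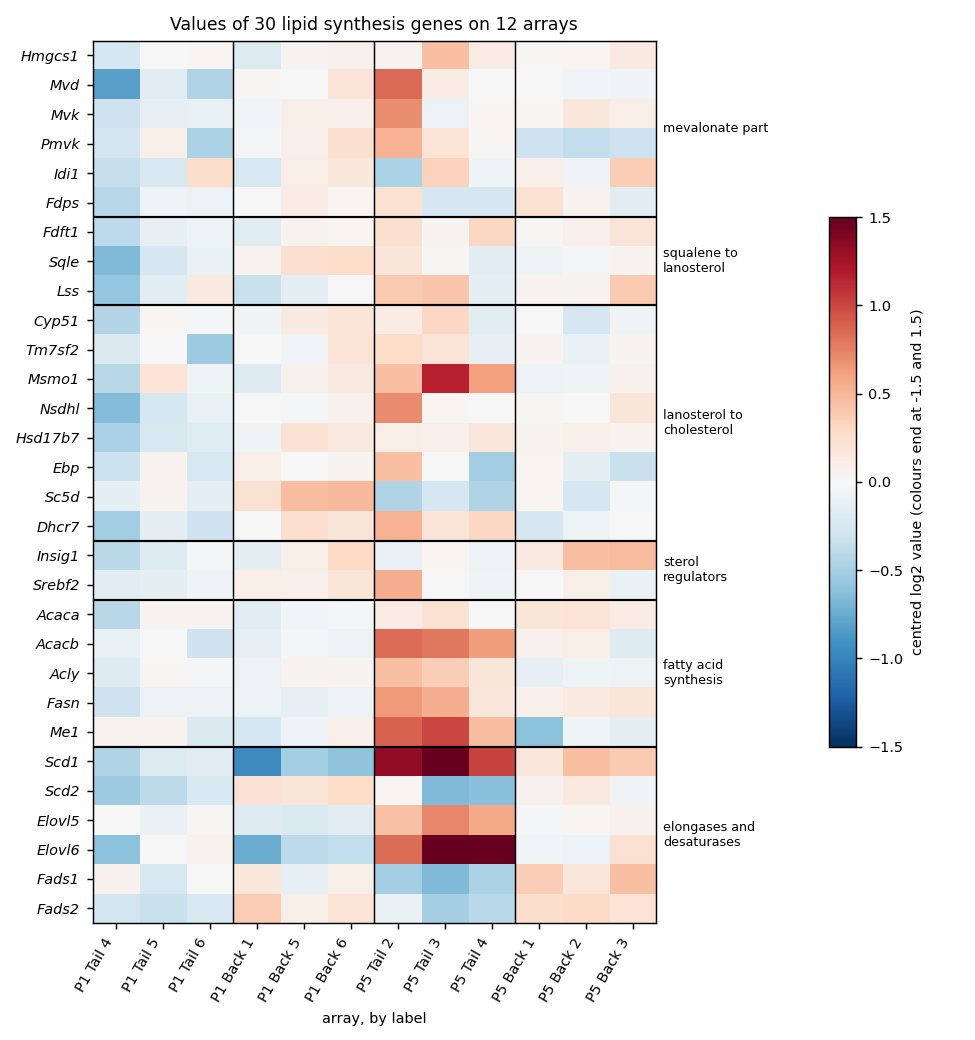
Centred log2 value (colour, 0 is the middle array of each probe set) of the 30 measured genes (rows, grouped by role) on the 12 arrays (columns, by label and replicate number). The dark red cells of Scd1 and Elovl6 stand in the P5 Tail columns, where Elovl6 read 0.84, 1.94 and 1.64, and the column of P1 Tail replicate 4 is blue for most cholesterol genes.

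In the comparison of sites at P1, all 19 cholesterol genes had lower means in P1 Tail than in P1 Back, and 1 of them was called. Their median difference was -0.24, against -0.04 over all genes, and the arrays of the groups did not overlap for 9 of the 19, against 17.6% of all genes lower without overlap. Of all 30 genes, 8 had an unadjusted p under 0.05, against 2630 of the 18193 genes. The mean over the 19 genes ran from -0.41 to -0.09 in P1 Tail and from -0.05 to 0.16 in P1 Back, and without P1 Tail replicate 4 the median difference was -0.20, with 15 of the 19 means lower and 4 higher and 0 called (4 at an unadjusted p under 0.05). Some epidermal markers were lower in P1 Tail too. Of 12 suprabasal epidermis genes 3 were called lower and 1 higher, 11 of the 12 differences lay below 0, and their mean ran from -1.90 to 0.60 in P1 Tail and from 1.17 to 1.53 in P1 Back. The gap between these means leans on 1 gene at -7.57, against a median difference of -1.30. The median over the 12 genes was -1.88, 0.72 and -0.35 in P1 Tail and 0.72, 0.96 and 1.01 in P1 Back. Of 10 basal epidermis genes 2 were called lower, with means of -0.37 to 0.03 against -0.06 to 0.18. P1 Tail replicate 4 was the lowest of the P1 arrays in both lists, and the part of these markers in the cholesterol gene differences was not tested.

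The called cholesterol gene was Sc5d, the sterol desaturase that acts late in the pathway. It read -0.13, 0.05 and -0.14 in P1 Tail and 0.23, 0.46 and 0.49 in P1 Back. Every P1 Tail array lay below every P1 Back array, and the difference was -0.47 (SE 0.12, limma adjusted p = 0.043). With P1 Tail replicate 4 or 6, or P1 Back replicate 5 or 6, left out it was -0.42 to -0.44 with adjusted p from 0.15 to 0.2. In the limma fit of single probe sets, the 3 of Sc5d were at -0.76 (adjusted p = 0.024), -0.35 (adjusted p = 0.45) and -0.29 (adjusted p = 0.6).

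Other late and middle steps were lower by similar amounts without being called. Mvd, the decarboxylase that ends the mevalonate steps, read -0.81, -0.17 and -0.45 in P1 Tail and 0.01, 0.00 and 0.20 in P1 Back, a difference of -0.55 (SE 0.20, adjusted p = 0.21). Sqle, the squalene epoxidase, read -0.67, -0.25 and -0.10 against 0.05, 0.24 and 0.28, a difference of -0.53 (SE 0.14, adjusted p = 0.065). In both genes the tail arrays lay below all back arrays, with the lowest value in P1 Tail replicate 4. Without P1 Tail replicate 6, Sqle passed the threshold at -0.65 (adjusted p = 0.048). Dhcr7, which makes cholesterol from its last precursor, differed by -0.46 (adjusted p = 0.075) and Hsd17b7, a sterol ketone reductase, by -0.40 (adjusted p = 0.06). The smallest differences were in Hmgcs1, a synthase of an early step of the pathway, and Lss, which makes lanosterol. Both were at -0.05, with tail and back arrays that overlapped.

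The 11 fatty acid genes were split at P1, with 4 means above and 7 below those of P1 Back and a median of -0.06. Fads2, the delta-6 desaturase of polyunsaturated fatty acids, read -0.27, -0.33 and -0.23 in P1 Tail and 0.39, 0.09 and 0.20 in P1 Back. The groups did not overlap, and the difference of -0.50 (SE 0.12, adjusted p = 0.031) was called. It was not called in any fit that left out a P1 array other than P1 Back replicate 5, with adjusted p from 0.087 to 0.15. In the limma fit of single probe sets, the 3 of Fads2 were at -0.87 (adjusted p = 0.0084), -0.34 (adjusted p = 0.2) and -0.30 (adjusted p = 0.43). Scd2, a stearoyl-CoA desaturase that puts the first double bond into saturated chains, read -0.55, -0.40 and -0.23 against 0.22, 0.18 and 0.28, and its difference of -0.62 (SE 0.16, adjusted p = 0.057) was the largest of the 30 genes at P1. Its paralog Scd1 lay the other way, at -0.45, -0.21 and -0.17 in P1 Tail and -0.95, -0.51 and -0.60 in P1 Back. All Scd1 tail arrays were above the back arrays, by 0.41 on average (SE 0.17, adjusted p = 0.27).

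**Figure D2:**
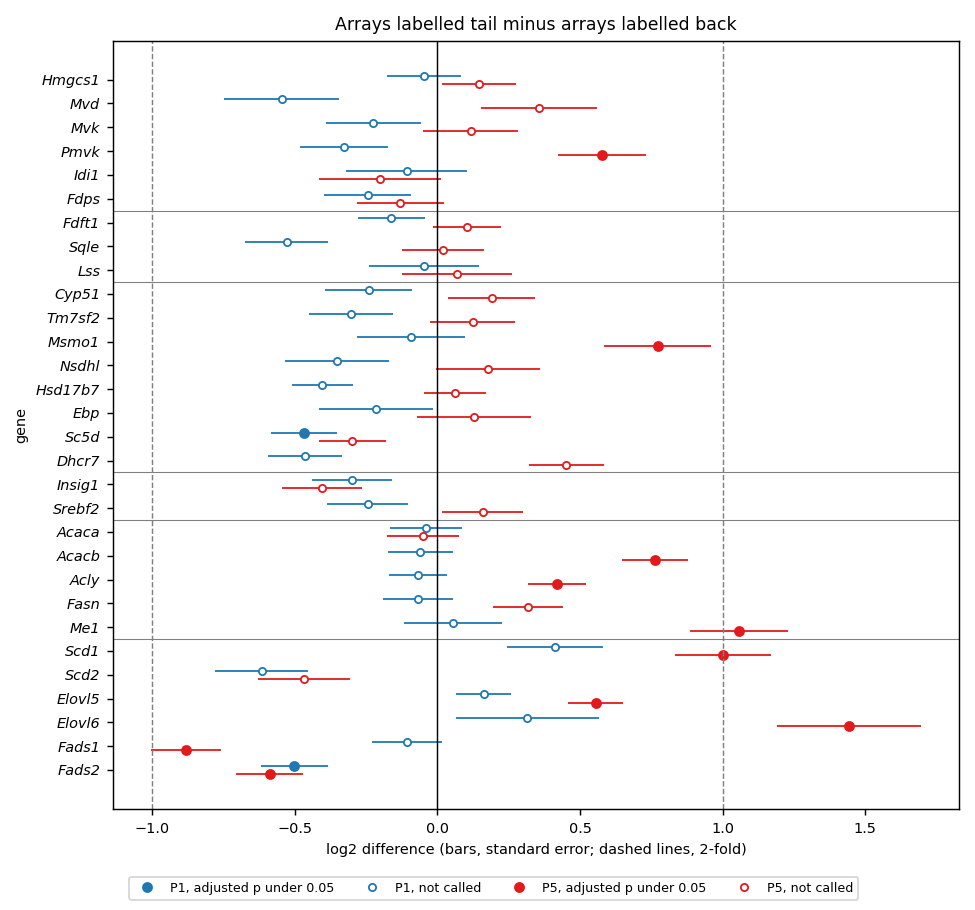
Difference between arrays labelled tail and arrays labelled back (x axis, log2 scale, bars are SE of the limma fit) for each of the 30 genes at P1 (blue) and at P5 (red), with filled points for called genes and dashed lines at 2-fold. Blue points of the 19 cholesterol genes, the upper 4 blocks, lie left of 0, and the red points of Elovl6, Me1 and Scd1 reach 1.44, 1.06 and 1.00.

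At P5, 3 of the 5 genes listed under fatty acid synthesis (Acly, Acaca, Acacb, Fasn and Me1) were called, all higher in P5 Tail. Acaca and Fasn were not called. The 5 had a median difference of 0.42 against -0.02 over all genes. Me1, the malic enzyme that yields NADPH for synthesis, read 0.89, 1.00 and 0.47 in P5 Tail, against -0.61, -0.06 and -0.15 in P5 Back. Acacb, an acetyl-CoA carboxylase that makes malonyl-CoA, read 0.83, 0.79 and 0.63 against 0.06, 0.10 and -0.19. The groups were far apart in both genes, and the differences were 1.06 (SE 0.17, adjusted p = 0.0024) for Me1 and 0.76 (SE 0.11, adjusted p = 0.0015) for Acacb.

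The Acacb value is the mean of 2 probe sets that differed in size, at 1.38 and 0.14, of which the larger was called in the fit of single probe sets, where 4.76% of the 45037 were. Its paralog Acaca differed by -0.05 (SE 0.13) with overlapping arrays. Acly, which splits citrate into cytosolic acetyl-CoA, read 0.45, 0.37 and 0.18 in P5 Tail, against -0.12, -0.07 and -0.07 in P5 Back, a difference of 0.42 (SE 0.10, adjusted p = 0.026). All tail arrays were higher, but the call was lost when P5 Tail replicate 2 or 3 or any P5 Back array was left out, with adjusted p from 0.052 to 0.093. Fasn, the fatty acid synthase itself, differed by 0.32 (SE 0.12, adjusted p = 0.16). The lowest P5 Tail array of Fasn, at 0.17, was level with the highest P5 Back array, at 0.18.

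Elongases and desaturases held the largest difference in either direction between the sites at P5. Elovl6, which extends saturated chains from palmitate to stearate, read 0.84, 1.94 and 1.64 in P5 Tail, against -0.04, -0.09 and 0.23 in P5 Back. The lowest tail array stood well above the highest back array, and the difference was 1.44 (SE 0.25, adjusted p = 0.0039), or 2.72-fold. Scd1, a delta-9 desaturase known for its place in sebaceous glands, read 1.33, 1.67 and 1.01 against 0.17, 0.45 and 0.39. Its difference of 1.00 (SE 0.17, adjusted p = 0.0031) was 2.00-fold with no overlap. Elovl5, which extends polyunsaturated chains, read 0.44, 0.73 and 0.57 against -0.02, 0.03 and 0.07, higher by 0.55 (SE 0.10, adjusted p = 0.004). Both its probe sets were called, at 0.48 and 0.63.

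The delta-5 and delta-6 desaturases ran the other way. Fads1, the delta-5 enzyme, read -0.51, -0.66 and -0.48 in P5 Tail, against 0.37, 0.17 and 0.45 in P5 Back, a difference of -0.88 (SE 0.12, adjusted p = 0.00081). Fads2 read -0.10, -0.50 and -0.41 against 0.26, 0.29 and 0.21, a difference of -0.59 (SE 0.12, adjusted p = 0.0091). In both genes all tail arrays were the lower ones. Both Fads1 probe sets were called lower, at -0.95 and -0.81, and 2 of the 3 Fads2 probe sets. Scd2 was at 0.03, -0.66 and -0.63 in P5 Tail, with replicate 2 apart from the others, against 0.06, 0.14 and -0.06 in P5 Back (difference -0.47, SE 0.16, adjusted p = 0.12).

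**Figure D3:**
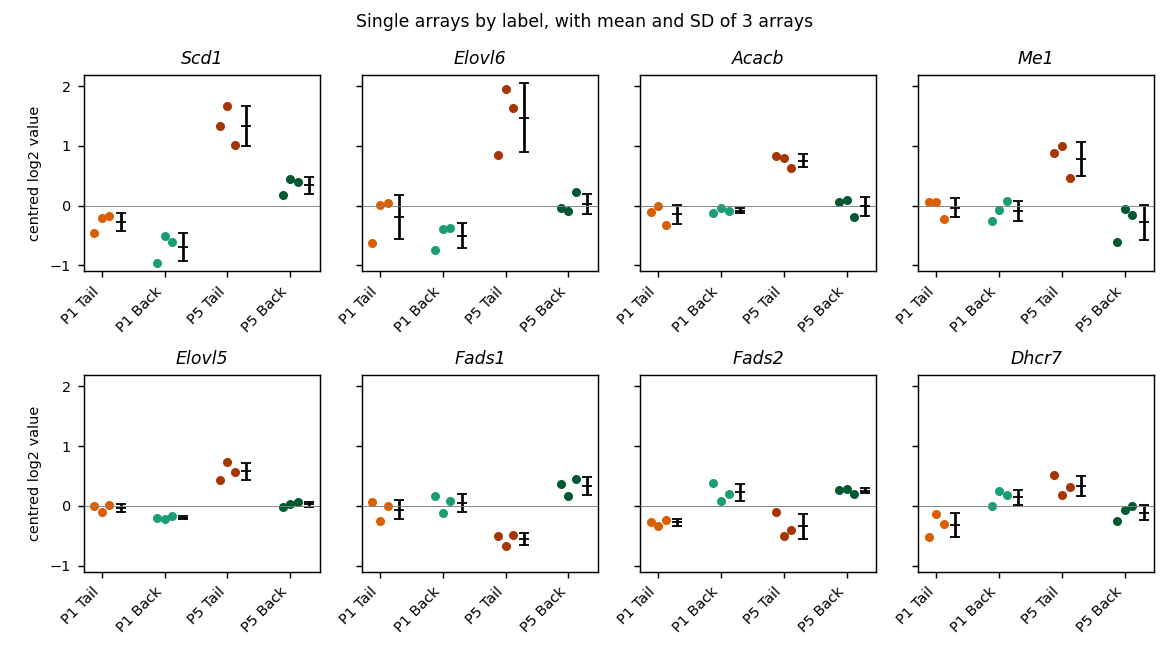
Centred log2 values (y axis) of 8 genes on single arrays (points) in the 4 labelled groups, with the mean and SD of 3 arrays as bars. Scd1, Elovl6, Acacb, Me1 and Elovl5 are highest in P5 Tail, Fads1 is lowest there, and Fads2 lies lower in both tail groups than in both back groups.

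Of the cholesterol genes, 2 were called at P5, both higher in P5 Tail, and the median of the 19 was 0.12. Msmo1, which removes methyl groups from lanosterol-derived sterols, read 0.45, 1.17 and 0.62 in P5 Tail, against -0.08, -0.06 and 0.07 in P5 Back. The tail arrays were all higher, by 0.77 on average (SE 0.19, adjusted p = 0.026). This value rests on 1 of its 2 probe sets, at 1.26. The other probe set was at 0.28 (adjusted p = 0.54 when used alone). The Msmo1 call was also lost without P5 Tail replicate 3 (0.56, adjusted p = 0.067) or without any 1 of the P5 Back arrays (adjusted p from 0.061 to 0.09).

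Pmvk, the phosphomevalonate kinase, read 0.52, 0.21 and 0.01 in P5 Tail, against -0.31, -0.37 and -0.32 in P5 Back, a difference of 0.58 (SE 0.15, adjusted p = 0.041). The back arrays of Pmvk were close together and all below the tail arrays, which were spread. Its call was lost without P5 Tail replicate 2 (0.44, adjusted p = 0.11) or 3 (adjusted p = 0.066), or without any 1 of the P5 Back arrays (adjusted p from 0.1 to 0.13). Dhcr7 had all tail arrays higher, by 0.45 (adjusted p = 0.058), and Insig1, which retains SREBP in the endoplasmic reticulum, had all tail arrays lower, by -0.40 (adjusted p = 0.12). The mean over the 19 cholesterol genes ran from -0.02 to 0.28 in P5 Tail, and from -0.02 to 0.05 in P5 Back, so the groups overlapped. The mean over the 11 fatty acid genes ran from 0.29 to 0.50 in P5 Tail and from 0.04 to 0.12 in P5 Back.

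Between P1 and P5 the arrays labelled tail rose in lipid genes. Of the 30 genes, 12 were called (40.0%), 11 higher and 1 lower at P5, against 5.3% of all genes (3.34% higher and 1.96% lower), and the median change was 0.40 against 0.04 over all genes. The fatty acid genes held 7 of the 11 rises and the fall. P1 Tail replicate 4 and P5 Tail replicate 2 lie at opposite ends of this comparison. Without P1 Tail replicate 4, P1 Tail replicate 6 or P5 Tail replicate 2 the count was 5, 6 or 7. Without both replicate 4 of P1 Tail and replicate 2 of P5 Tail it was 5 with a median change of 0.24. With 1 tail array left out at a time, 472 to 1685 of the 18193 genes were called, against 964 with all arrays.

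The largest rises with age in tail were those of Elovl6 and Scd1, both chain-modifying enzymes. Elovl6 read -0.62, 0.01 and 0.05 at P1 and rose by 1.66 (SE 0.25, adjusted p = 0.0022), or 3.17-fold. Scd1 rose by 1.61 (SE 0.17, adjusted p = 0.00018), or 3.06-fold. Elovl5 read 0.00, -0.10 and 0.01 at P1 and rose by 0.61 (SE 0.10, adjusted p = 0.003). For all these genes every P5 Tail array was above every P1 Tail array. Acacb read -0.11, 0.00 and -0.32 at P1 and rose by 0.89 (SE 0.11, adjusted p = 0.00077). These 4 genes kept their call with each single array left out.

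Other fatty acid genes changed with less certainty. Me1 read 0.06, 0.06 and -0.22 at P1 and rose by 0.82 (SE 0.17, adjusted p = 0.016), with adjusted p of 0.074 without P1 Tail replicate 6 and 0.052 without P5 Tail replicate 2. Fasn read -0.31, -0.08 and -0.09 at P1 and 0.64, 0.55 and 0.17 at P5, a rise of 0.61 (SE 0.12, adjusted p = 0.012). Without P1 Tail replicate 4 the rise of Fasn was 0.54 (adjusted p = 0.063). Acly rose by 0.40 (adjusted p = 0.042), and lost its call in each fit with 1 tail array left out other than P5 Tail replicate 4 (adjusted p from 0.052 to 0.17). Fads1 read 0.07, -0.24 and -0.01 at P1 and fell by 0.49 (SE 0.12, adjusted p = 0.036), with adjusted p from 0.057 to 0.15 without P1 Tail replicate 4 or 6 or P5 Tail replicate 2 or 3. Fads2 differed by -0.06 (adjusted p = 0.82).

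Among the cholesterol genes 4 rose with age in tail and 18 of 19 means were higher at P5. Msmo1 rose by 0.84 (adjusted p = 0.022), Mvd by 0.80 (adjusted p = 0.038), Dhcr7 by 0.66 (adjusted p = 0.011) and Hsd17b7 by 0.41 (adjusted p = 0.044). The 2 probe sets of Msmo1 were apart, at 1.47 and 0.21 (adjusted p = 0.68 for the smaller in the limma fit of single probe sets). The 4 probe sets of Hsd17b7 were at 0.16 to 0.57, with 0 called. Mvd read 0.85, 0.12 and 0.01 at P5, with replicate 2 far above the others, and its rise without that array was 0.54 (adjusted p = 0.079). Dhcr7 read -0.52, -0.13 and -0.31 at P1 and 0.52, 0.19 and 0.31 at P5, with no overlap. Without P1 Tail replicate 4 none of the 4 was called by limma. Msmo1 was then at 0.68 (adjusted p = 0.1), Mvd at 0.64 (adjusted p = 0.16), Dhcr7 at 0.56 (adjusted p = 0.056) and Hsd17b7 at 0.32 (adjusted p = 0.19). In that fit 9 of the 19 had an unadjusted p under 0.05, and with all arrays 3757 of the 18193 genes did. Without P1 Tail replicate 6, Dhcr7 was the 1 cholesterol gene called. Hsd17b7 was also not called without P1 Tail replicate 5 or P5 Tail replicate 2 or 4 (adjusted p from 0.064 to 0.069). The change of the median cholesterol gene was 0.37 with all arrays and 0.16 without both replicate 4 of P1 Tail and replicate 2 of P5 Tail.

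**Figure D4:**
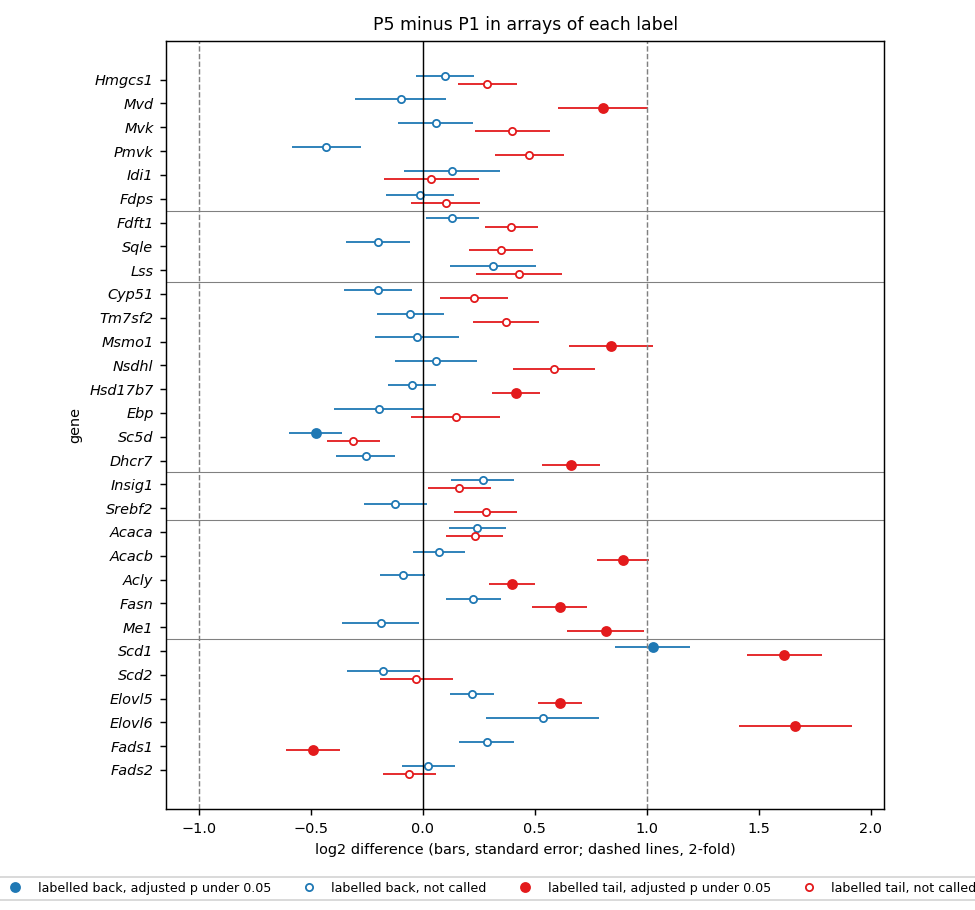
Difference of P5 from P1 (x axis, log2 scale, bars are SE of the limma fit) for the 30 genes in arrays labelled back (blue) and arrays labelled tail (red), with filled points for called genes and dashed lines at 2-fold. Most red points lie to the right of 0, with 12 of 30 called, and 2 of 30 blue points are called, Scd1 at 1.03 and Sc5d at -0.48.

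In arrays labelled back, 2 of the 30 genes were called between P1 and P5 (6.67%), against 4.25% of all genes (2.22% higher and 2.03% lower), and the median change was 0.01. Scd1 rose from -0.95, -0.51 and -0.60 at P1 to 0.17, 0.45 and 0.39 at P5, by 1.03 (SE 0.17, adjusted p = 0.0037). Its call held with each single back array left out. Without P1 Back replicates 1 and 6 together, which leaves 1 array in that group, the rise of Scd1 was 0.85. Sc5d read 0.03, -0.25 and -0.03 at P5, below all P1 Back arrays, and fell by 0.48 (SE 0.12, adjusted p = 0.037). It kept the call without P1 Back replicate 1 and lost it without any other back array (adjusted p from 0.057 to 0.19). The 3 probe sets of Sc5d were at -0.59, -0.49 and -0.36, with 0 called in the limma fit of single probe sets. Elovl6 read -0.75, -0.39 and -0.37 at P1 and was higher at P5 in every array, by 0.54 (SE 0.25, adjusted p = 0.39).

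The change with age itself differed between the labelled sites for 5 of the 30 genes (16.7%), 4 upward and 1 downward, against 2.87% of all genes (1.93% upward and 0.94% downward). In a test of the interaction, the difference between sites was larger at P5 than at P1 by 1.00 for Me1 (SE 0.24, adjusted p = 0.046), 0.92 for Dhcr7 (SE 0.18, adjusted p = 0.019), 0.91 for Pmvk (SE 0.22, adjusted p = 0.044) and 0.82 for Acacb (SE 0.16, adjusted p = 0.017). It moved by -0.77 for Fads1 (SE 0.17, adjusted p = 0.029). The 2 probe sets of Acacb were at 1.24 and 0.41 (adjusted p = 0.48 for the smaller in the limma fit of single probe sets). Dhcr7 is the plainest reversal, with all P1 Tail arrays below all P1 Back arrays and all P5 Tail arrays above all P5 Back arrays, which were at -0.26, -0.07 and 0.00. Elovl6, with the largest interaction value at 1.13 (SE 0.36), was not called (adjusted p = 0.13), although it was without P5 Tail replicate 2 (1.44, adjusted p = 0.017). None of the 5 calls held with each single array left out. Without P1 Tail replicate 6, P1 Back replicate 5 or P1 Back replicate 6 the count was 0. In those limma fits 12 to 15 of the 30 genes had an unadjusted p under 0.05, and with all arrays 2615 of the 18193 genes did. With 1 array left out at a time, 239 to 731 of all genes were called for the interaction, against 522 with all arrays.

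Other genes of lipid synthesis were taken from a list of 46, of which 37 were measured. At P5, 13 of the 37 were called (35.1%), all higher in P5 Tail, and of all 37 means 27 lay above and 10 below those of P5 Back. Leading them were Elovl4, the elongase of very long chains, at 2.17 (SE 0.25, adjusted p = 0.00023), Scd3, a further stearoyl-CoA desaturase, at 1.59 (SE 0.25, adjusted p = 0.0022), Hacd2, a dehydratase of the elongation cycle, at 1.18, and Elovl3 at 1.10. Between P1 and P5 in tail 15 of the 37 rose and 0 fell, with Scd3 at 2.44 and Elovl3 at 2.01. Srebf1 rose by 0.72 in tail between P1 and P5 (SE 0.13, adjusted p = 0.0077), while Srebf2, the sterol counterpart, differed by 0.28 (adjusted p = 0.29). At P1, 5 were called between sites, with Mlxipl, a carbohydrate-sensing factor, higher by 1.05 in P1 Tail and Stard4, a cholesterol carrier, at -0.44. In back 5 were called between ages, with Npc1, which moves cholesterol out of late endosomes, at 0.77, Elovl1 at -0.96 and Elovl3 rising from a mean of -1.07 at P1 to 0.43 at P5.

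Markers of other skin cells were set beside these genes. Of 7 measured sebaceous gland genes, 4 were called higher in P5 Tail than in P5 Back, led by Krt79 at 2.55 and Far2, which makes wax alcohols, at 2.13. The mean over the 7 ran from 1.02 to 1.37 in P5 Tail, from -0.15 to -0.06 in P5 Back, from -0.19 to 0.10 in P1 Tail and from -0.53 to -0.13 in P1 Back. Of 10 basal epidermis genes, 6 were called higher in P5 Tail, among them Krt14 at 1.11, and their mean ran from 0.33 to 0.52 in P5 Tail and from -0.53 to -0.33 in P5 Back. Of 12 suprabasal epidermis genes, 4 were called higher and 1 lower there, with means of 0.00 to 0.58 and -1.55 to -0.59. Of 7 measured brown fat genes, 2 were called higher in P5 Tail and 0 lower, with a median difference of 0.27 and 1 difference below 0. Cidea, a lipid droplet protein, was higher by 2.90 and was the 1 gene of that list at 2-fold or more. Ucp1 averaged 0.08 in P5 Tail and -0.11 in P5 Back. Of 10 Schwann cell and myelin genes, 2 were called higher (Egr2, a factor of myelination, at 1.73 and Erbb3 at 0.63) and 1 lower (Pmp2, a myelin protein, at -1.77) in P5 Tail, with 6 of the 10 differences below 0, and in back 4 of the 10 rose with age, led by Pmp2 at 3.05. Between P1 and P5 in tail, 5 of the 7 sebaceous gland, 5 of the 10 basal and 1 of the 12 suprabasal epidermis genes were called higher. In these lists 0 were called lower, against 3.34% higher and 1.96% lower of all genes. Of 12 skeletal muscle genes 2 were called lower and 0 higher there, with a median change of -1.46. Their mean ran from 0.58 to 2.02 in P1 Tail, highest in replicate 4, and from -0.80 to -0.37 in P5 Tail. The part of these markers in the lipid gene differences was not tested, and whether any of them is near 0 cannot be read from centred values.

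Averaged over the list, fat cell genes were highest in P1 Tail, but single genes differed. Of 20 measured adipocyte genes, 14 were called higher in P1 Tail than in P1 Back and 0 lower, against 2.06% and 1.91% of all genes. The means of 2 of the 20, Dgat2 and Slc2a4, were lower in P1 Tail. Of the 30 synthesis genes, 0 were called higher and 2 lower in this comparison. At P5, 6 of the 20 were called higher in P5 Tail and 0 lower, against 4.3% and 2.61% of all genes. Of the 30 synthesis genes, 8 were called higher and 2 lower there. In tail, 7 of the 20 fell and 1 rose between P1 and P5, against 1.96% and 3.34% of all genes, with Adipoq at -1.75. Of the 20 means 16 were lower at P5, and 4 were higher (Pparg, Cebpa, Agpat2 and Dgat2). Pparg averaged 0.48 in P1 Tail and 0.82 in P5 Tail, and Cebpa 0.20 and 0.68. Of the 30 synthesis genes, 11 rose and 1 fell. In back, 9 adipocyte genes rose and 1 fell, against 2.22% and 2.03% of all genes, with Adipoq at 2.69. Of the 30 synthesis genes, 1 rose (Scd1) and 1 fell (Sc5d). The mean over the 20 genes ran from 0.67 to 1.07 in P1 Tail, from -0.78 to -0.72 in P1 Back, from 0.06 to 0.46 in P5 Tail and from -0.35 to -0.06 in P5 Back. The part of fat cells in the lipid gene differences was not tested.

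**Figure D5:**
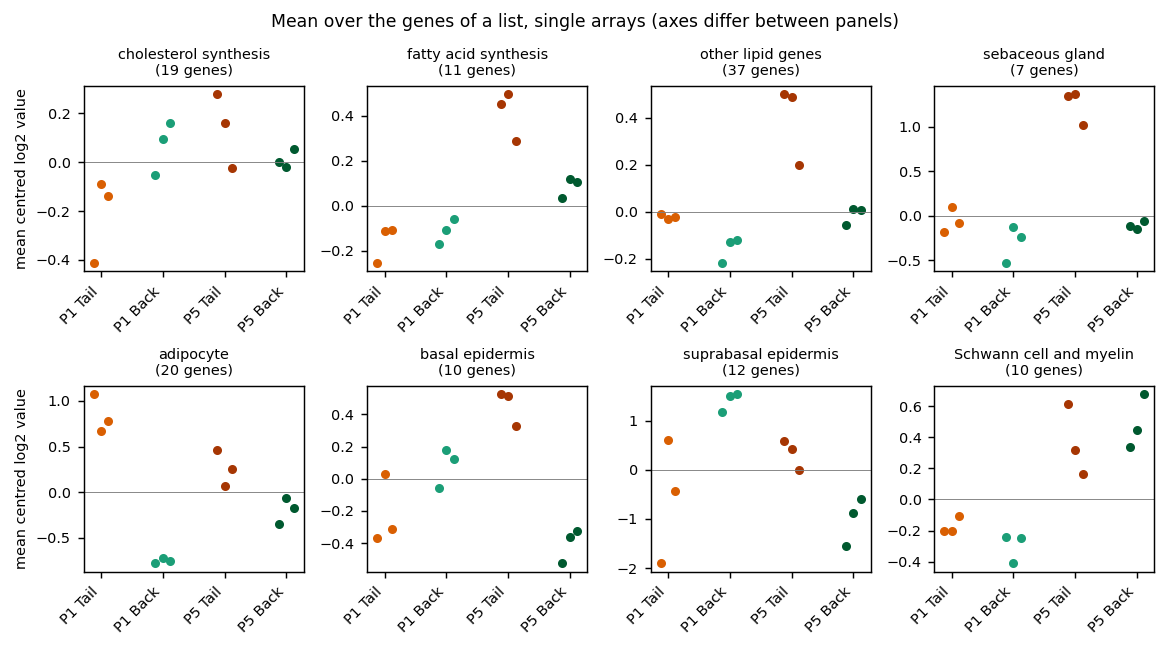
Mean centred log2 value over the measured genes of a list (y axis, whose range differs between panels) on single arrays (points) in the 4 labelled groups. The fatty acid, other lipid and sebaceous gland panels are highest in P5 Tail, and the adipocyte panel is highest in P1 Tail.

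The arrays could resolve differences of limited size. The 95% confidence interval of a difference had a median half-width of 0.32 over the 30 genes (from 0.21 to 0.55), and of 0.45 for the interaction. At P1 the intervals of all 30 genes lay within 2-fold between the labelled sites in either direction, at P5 those of 24, between ages those of 24 in tail and 28 in back. Genes that were not called may therefore still differ by amounts within these intervals.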

How the data were processed

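RNA of dermis was measured on 12 one-colour Affymetrix arrays, 3 for each of 4 groups taken from the sample labels. The authors normalised the arrays by RMA, and the deposited values are log2 values (a log base taken from the RMA method, since none is given with the values) that are further centred, so that each probe set has a median of 0 over the 12 arrays. The centring is not described in the methods and removes levels, so the authors' filter on weakly expressed genes (20%) could not be repeated, and signal over background is unknown. After 64 control probe sets were left out, 45037 remained, of which 34945 had 1 gene symbol in the platform annotation, 932 several and 9160 none. Values were averaged per gene over probe sets with 1 symbol. All 30 measured genes kept their symbol in RefSeq by gene ID.

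All 18193 genes were fitted with limma 3.58.1 (lmFit and eBayes, R 4.3.3) with 4 group means and 5 comparisons, with Benjamini-Hochberg adjustment over all genes. The procedure was tested on simulated data of independent normal noise per gene, with differences added to the P1 Tail arrays. Arrays that stand apart were not simulated, so that test does not cover them. The 31 genes and the other lists were chosen with earlier results of these data known, and their medians and counts are descriptions. Full statistics are given for genes called and for the 3 largest differences in each comparison, and other lists by up to 4 called genes. No arrays held identical values, and array medians ran from -0.02 to 0.01. Nothing in the labels ties a replicate number to 1 mouse, so numbers were not taken as pairs. The alternatives were array centring, trended robust variances, array weights, the replicate block, fits of only the arrays compared, other probe set summaries and filters, arrays left out, and the methods' t-test, with 1 alternative added after seeing the data (without both P1 Tail replicate 4 and P5 Tail replicate 2). Promoter windows came from RefSeq. Fdps, Fdft1, Sqle, Scd1, Scd2 and Fads1 had no window.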

Additional observations from a re-analysis of the deposited data

Results flagged for a closer look

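A test of the interaction of site and age in the limma fit found 5 of the 30 genes whose difference between arrays labelled tail and back was not the same at P1 and P5. The difference was larger at P5 by 1.003 for Me1 (adjusted p = 0.046), by 0.9157 for Dhcr7 (adjusted p = 0.019), by 0.9061 for Pmvk (adjusted p = 0.044) and by 0.8222 for Acacb (adjusted p = 0.017), and moved by -0.7749 for Fads1 (adjusted p = 0.029). Dhcr7 went from -0.46 at P1 to 0.45 at P5, and Pmvk from -0.33 to 0.58. Acacb went from -0.06 to 0.76, Me1 from 0.06 to 1.06 and Fads1 from -0.11 to -0.88. With 1 of the 12 arrays left out at a time, adjusted p ranged from 0.016 to 0.14 for Me1, 0.0092 to 0.062 for Dhcr7, 0.01 to 0.13 for Pmvk, 0.011 to 0.057 for Acacb and 0.015 to 0.092 for Fads1. Groups of 3 arrays were too small for a check of single arrays against the others.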

How the results depend on the processing

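Over all alternatives no named gene changed direction. Of 612 values of named genes, 406 kept their side of the threshold, 193 lost a call and 13 gained one. The cause of these shifts was not tested.

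The number of the 30 genes called between sites at P1 was 2, and became 1 with each array centred on its median and 10 with array weights (where 3650 of the 18193 genes were called). It became 1 with probe sets left out whose suffix marks sequence shared by transcripts of 1 gene or by several genes, 1 with the median of probe sets, and 0 to 2 with single arrays left out. Between sites at P5 it was 10, and became 5 with only the arrays compared and 7 to 11 with single arrays left out. Between ages in back it was 2, and became 4 with array weights and 4 with only the arrays compared. It became 1 with the median of probe sets, 1 with genes of low spread left out, and 1 to 2 with single arrays left out. Between ages in tail it was 12, and became 6 with array weights, 3 with only the arrays compared, 5 without both P1 Tail replicate 4 and P5 Tail replicate 2, and 5 to 13 with single arrays left out. For the interaction it was 5, and became 1 with trended robust variances and 3 with probe sets of such a suffix left out. It became 3 without P1 Tail replicate 4 and P5 Tail replicate 2, and 0 to 6 with single arrays left out. Without those 2 tail arrays the median difference of the 30 genes was 0.24 between ages in tail and 0.20 for the interaction, against 0.40 for both with all arrays. The methods' t-test called 0 of the 30 genes after Benjamini-Hochberg adjustment in each of the 4 comparisons of groups, while limma called 2, 10, 2 and 12. At an unadjusted p under 0.05 the t-test passed 10 genes between sites at P1, 13 at P5, 7 between ages in back and 13 in tail. Where a limma fit above called 0 of the 30 genes, up to 15 of the 30 passed at an unadjusted p under 0.05. In the limma fit of all arrays 2630 of the 18193 genes passed between sites at P1 and 3689 at P5. Between ages 2441 passed in back and 3757 in tail, and 2615 for the interaction. Such counts of all genes were not taken in the alternative fits or the t-test. A fit without P1 Back replicates 1 and 6 leaves 1 array in that group, so its counts are not given.

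With the replicate number as a block, 0 genes were called between sites at P1, 7 at P5, 1 between ages in back, 4 between ages in tail and 5 for the interaction. Fads2 was at -0.53 between sites at P5 (adjusted p = 0.054) in that fit. Deviations of arrays with the same number correlated by -0.04 to 0.26 in the 6 pairs, and the samples share only a number.

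Of the calls, 7 of 10 between sites at P5, 4 of 12 between ages in tail, 1 of 2 between ages in back, 0 of 2 between sites at P1 and 0 of 5 for the interaction held with each single array left out. The number of genes called of all 18193 ranged over the alternatives from 6 to 3650 between sites at P1 (722 in the fit of all arrays), 24 to 2136 at P5 (1257), 10 to 2136 between ages in back (773), 0 to 1685 in tail (964) and 99 to 767 for the interaction (522). With single arrays left out, the number called of all genes ran from 385 to 789 between sites at P1 and from 737 to 2136 at P5. It ran from 379 to 529 between ages in back, 472 to 1685 in tail and 239 to 731 for the interaction. The 3 arrays in a group limit the precision.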
